A study of Schmidtea mediterranea with 6 samples.

Results

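In whole planarians fed double-stranded RNA against *nkx2.2*, 381 transcripts were low in replicates 2 and 3 of the knockdown but stood at or above 0.8 times the control mean in replicate 1. The 381 were chosen from 28069 transcripts of a count table by their own levels in CPM (a transcript's count per M counts of its library). A member had a mean control CPM of at least 5. It had at most 0.6 times that mean in *nkx2.2(RNAi)* replicates 2 and 3, with both below all 3 control libraries, and at least 0.8 times that mean in *nkx2.2(RNAi)* replicate 1. The lipoprotein receptor transcript *vldlr-1* (dd_Smed_v6_1510_0_1) also met these limits and was set aside. Its levels were 181, 88.8 and 84.8 CPM in *nkx2.2(RNAi)* libraries, against 185, 145 and 149 CPM in control libraries. The levels of all 6 libraries chose the members, so their levels are a description and carry no test.

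The animals were *Schmidtea mediterranea* of the asexual clonal line CIW4, a freshwater planarian, taken whole and uninjured. Animals of the *nkx2.2(RNAi)* group had received 1 feeding with 1 µg of *nkx2.2* dsRNA, and control animals had received *egfp* dsRNA, which has no target in planarians. Both groups were then starved for 7 days, and RNA was extracted from 3 pools of animals per group. The sample record gives 6 to 10 animals per pool, and the paper's methods give a smaller range. Polyadenylated RNA was sequenced as stranded libraries in pairs of 150 bases. The labels call the pools biological replicates and give no day or batch for any of them. A whole animal mixes all cell types, so fewer cells of a type and less RNA per cell cannot be told apart in any of these values.

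*nkx2.2* encodes a homeodomain transcription factor that is enriched in the planarian intestine. The intestine digests and stores food, secretes the lipoproteins that carry neutral lipid to other tissues, and consists mainly of phagocytes and goblet cells. Planarian tissues are renewed by neoblasts, the dividing stem cells of the animal, whose progeny differentiate after leaving the cell cycle. An extract of whole animals mixes the transcripts of intestine, neoblasts, their progeny and all other tissues.

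The *nkx2.2(RNAi)* libraries held 65.5, 55.9 and 58.6 M counts, and the control libraries 54.4, 53.3 and 59.4 M. The level of the target was read in each library. *nkx2.2* (dd_Smed_v6_2716_0_1) stood at 9.54, 8.21 and 8.28 CPM in *nkx2.2(RNAi)* libraries, against 176, 220 and 179 CPM in control libraries. Its log2 fold change was -4.41 (SE 0.12, n = 3 per group, edgeR exact test adjusted p = 1.42e-210). The intestinal transcript *apob-1*, which encodes an apolipoprotein B, stood at 6.52, 4.92 and 4.05 CPM in *nkx2.2(RNAi)* libraries, against 735, 709 and 674 CPM in control libraries. Both were far below every control in all 3 knockdown libraries, and for both replicate 1 was the highest of the 3. Whether the extent of knockdown differed between pools was not tested. None of the 14 marker transcripts of intestine, neoblasts, progenitors, neurons, pharynx, polarity and housekeeping met the rule. The polarity marker *notum* lay below the minimum control level of 5 CPM and could not have met it. Members were 3.31% of the 11525 transcripts at this level, so a list of 14 is too short to show their absence. Nothing about these tissues is therefore read from this count. The pan-neoblast marker *piwi-1* stood at 458, 395 and 385 CPM in *nkx2.2(RNAi)* libraries, against 492, 459 and 469 CPM in controls. *ctsla*, a cathepsin of the intestine, stood at 707, 895 and 1145 CPM in *nkx2.2(RNAi)* libraries, against 2582, 2392 and 2789 CPM in controls. For *ctsla* replicate 1 was the lowest of the 3 knockdown libraries, whereas the rule holds it above replicates 2 and 3 in every member. Other intestinal markers differed. Relative to the control mean, *apob-2* stood at 39.5%, 29.2% and 50.2% in *nkx2.2(RNAi)* replicates 1, 2 and 3. In the same libraries *npc2* stood at 81.1%, 105% and 107%, and *slc22a6* at 163%, 152% and 139%.

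The members were first described as a set, to see how far replicate 1 stood from the other libraries. Relative to the control mean, their median level was 99.0% in *nkx2.2(RNAi)* replicate 1, 48.7% in replicate 2 and 44.7% in replicate 3. In replicate 1 the members ranged from 80.1% to 142% of the control mean. The median over all 11525 transcripts with a mean control CPM of at least 5 was 104%, 96.9% and 95.2% in the same 3 libraries. Members made up 0.9004%, 0.440% and 0.397% of all counts in *nkx2.2(RNAi)* libraries, against 1.08%, 0.814% and 0.827% in control libraries. Both low replicates were at or under 50% of the control mean for 177 members, and 10 members were at or under 25% in both. Replicate 3 was lower than replicate 2 for 269 members (70.6%), as it was for 56.9% of the 11525 transcripts.

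**Figure D1:**
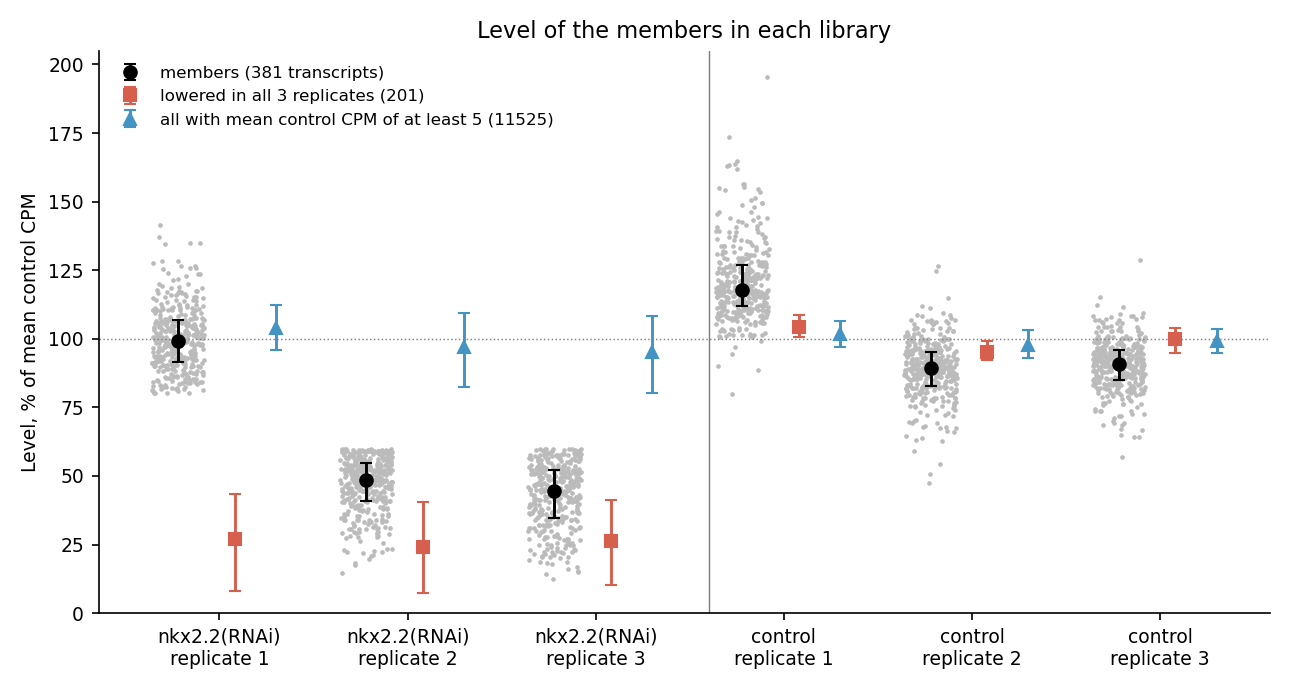
Level of each transcript in each library as a percentage of its mean control CPM, with *nkx2.2(RNAi)* libraries on the left and control libraries on the right. Grey points are the 381 members, and large symbols with bars are the median and quartiles of the members, of the 201 transcripts lowered in all 3 knockdown replicates and of all 11525 transcripts with a mean control CPM of at least 5. The medians of the members were 99.0%, 48.7% and 44.7% in the knockdown libraries, and control replicate 1 stood at 118%.

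Similar thresholds with another library spared found few transcripts. No transcript was low in replicates 1 and 3 but kept in replicate 2, or low in replicates 1 and 2 but kept in replicate 3. With the thresholds inverted, 1 transcript was high in replicates 2 and 3 but not in replicate 1. Under 4 other scalings of the libraries these counts were 0, at most 2, and 6 or 7. By contrast, 201 transcripts with the same minimum level were low by the same limit in all 3 knockdown replicates, with medians of 27.2%, 24.2% and 26.3% of the control mean. A further 103 transcripts were low in replicates 2 and 3 and lay between the ratios 0.6 and 0.8 in replicate 1. The members therefore border on a group of intermediate transcripts.

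The limits of the rule cut through these transcripts at close distances. At the limit of 0.6, dd_Smed_v6_18397_0_1 lay inside with a higher ratio of 0.599971 and dd_Smed_v6_3354_0_1 outside with 0.600324. At the limit of 0.8 for replicate 1, dd_Smed_v6_7784_0_1 lay inside with 0.801148 and dd_Smed_v6_13032_0_1 outside with 0.799502. The least abundant member, dd_Smed_v6_3938_0_1, had a mean control level of 5.03 CPM, and dd_Smed_v6_7782_0_1 lay outside with 4.95 CPM.

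The control libraries were not alike for these transcripts. Control replicate 1 was the highest of the 3 control libraries for 353 of the 381 members (92.7%). It was the highest for 44.1% of the 11525 transcripts and for 127 of the 201 transcripts lowered in all 3 replicates (63.2%). The members' median levels were 118%, 89.4% and 90.9% of the control mean in control replicates 1, 2 and 3. The rule does not use the order of the controls among themselves, but a high control library raises the control mean against which each knockdown library was judged. With the control library of the same replicate number as the reference, the members' median levels were 83.2%, 54.4% and 49.0% in *nkx2.2(RNAi)* replicates 1, 2 and 3. *nkx2.2(RNAi)* replicate 1 was below control replicate 1 for 351 members (92.1%), and it lay within the range of the 3 controls for 303.

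When the members were divided into 4 groups of 95 or 96 by the excess of control replicate 1, its median was 112%, 125%, 137% and 166% of the mean of control replicates 2 and 3. Across the same groups of members *nkx2.2(RNAi)* replicate 1 stood at 99.7%, 107%, 112% and 126% of that mean. The mean of *nkx2.2(RNAi)* replicates 2 and 3 stood at 53.3%, 53.6%, 51.4% and 45.4%. These levels share a denominator. The rule also sets a floor for *nkx2.2(RNAi)* replicate 1 that is higher where control replicate 1 is higher, and it holds replicates 2 and 3 below every control. Nothing is therefore read from these levels, and no test was made of them. Without control replicate 1 the rule gave 279 transcripts, of which 248 were among the 381. What the 2 libraries numbered 1 share besides their number cannot be told from the labels, and its part in the choice of members was not tested.

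**Figure D2:**
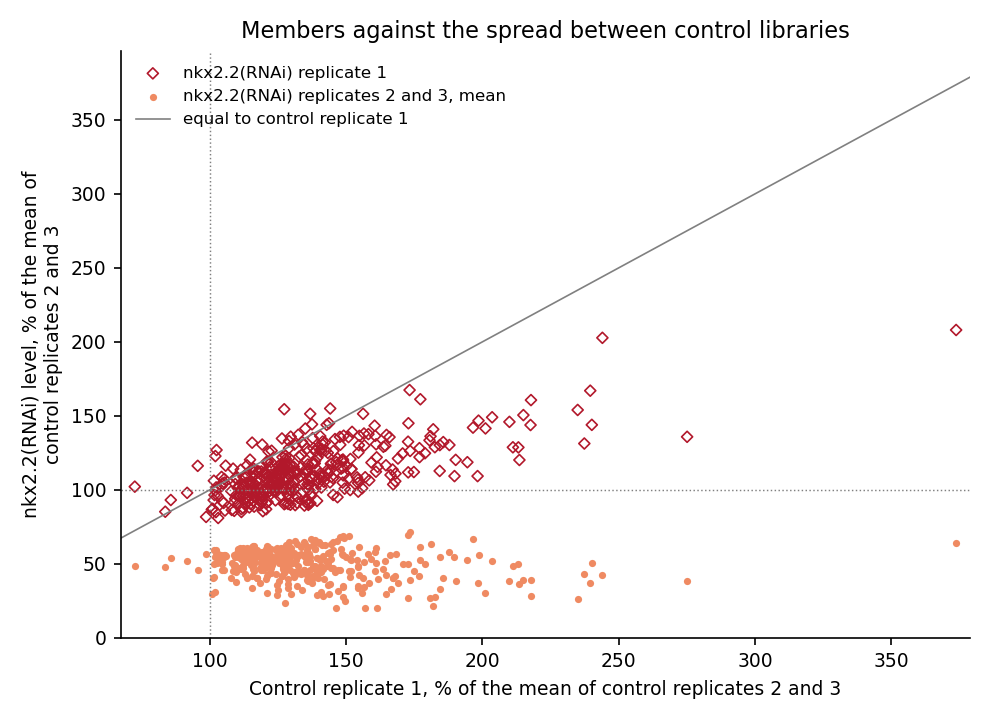
Level of each of the 381 members in *nkx2.2(RNAi)* replicate 1 (open diamonds) and in the mean of *nkx2.2(RNAi)* replicates 2 and 3 (filled points), against its level in control replicate 1, all as percentages of the mean of control replicates 2 and 3. Most members lie to the right of 100%, and *nkx2.2(RNAi)* replicate 1 lies below the line of equality with control replicate 1 for 351 of them.

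Members were mostly short and weakly expressed transcripts. Their median length was 1100 bases (range 329 to 7382), against 1594 bases for all 11525 transcripts. Their median control level was 12.7 CPM (range 5.03 to 415), against 29.3 CPM. The least abundant decile of the 11525 transcripts held 105 members, or 9.11% of that decile, and the most abundant decile held 5, or 0.434%. The shortest decile held 84 members (7.29%) and the longest held 17. Over all transcripts of the least abundant decile, the median level was 104%, 88.9% and 85.3% of the control mean in *nkx2.2(RNAi)* replicates 1, 2 and 3, and in the most abundant decile it was 102%, 106% and 105%. The weakly expressed transcripts as a whole thus stood lower in the same 2 libraries, by less than the members. The part of this trend in the members was not tested beyond the following values. Over all transcripts of the shortest decile the median level was 103%, 104% and 100%, and of the longest 111%, 95.9% and 101%. When each library's trend with abundance was taken out, 233 of the 381 members still met the rule. When its trend with length was taken out, 251 did. Taking out the length trend also moved the median of the 11525 transcripts by 0.10 and 0.12 on the log2 scale in *nkx2.2(RNAi)* replicates 2 and 3. The abundance trend moved it by 0.05 and 0.08. How many members were lost by this shift alone was not tested.

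**Figure D3:**
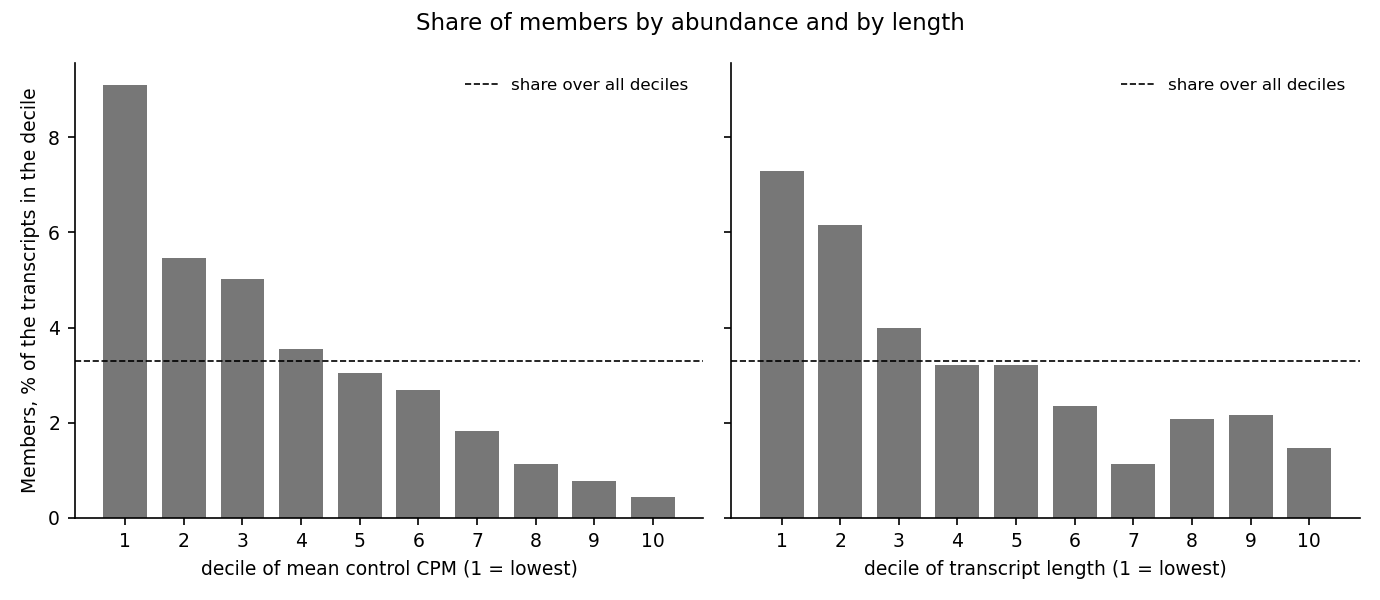
Share of members among the transcripts of each decile of mean control CPM (left) and of transcript length (right), over 11525 transcripts. Bars give the percentage of transcripts that were members, and the dashed line marks the share over all deciles, 3.31%. The share was 9.11% in the least abundant decile and 0.434% in the most abundant.

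The scaling of libraries also bore on the number. Scaled by TMM factors (trimmed mean of M-values), the median of the 11525 transcripts moved by 0.10 and 0.13 on the log2 scale in *nkx2.2(RNAi)* replicates 2 and 3 and by -0.04 in replicate 1. The members' medians were then 96.5%, 52.4% and 48.9%, and 256 of the 381 met the rule. Control replicate 1 remained the highest control for 335 members (87.9%), against 29.8% of the 11525 transcripts.

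The comparison of the groups as labelled was computed for all transcripts, with 3 libraries against 3. By the edgeR exact test, 63 members (16.5%) were lower past an adjusted p of 0.05, beside 5.43% of the 14871 transcripts tested. Another 5.18% of transcripts were higher. The rule used this contrast, so that count says nothing about the members. The quasi-likelihood test called 7 members, beside a background of 3.42% lower and 3.04% higher. The members' median log2 fold change was -0.60, against 0.02 over all transcripts tested. The number called changed with the libraries used, for members and for all transcripts, of which 808 were lower with all 6 libraries. Without *nkx2.2(RNAi)* replicate 1 all 381 members passed, by the construction of the set, beside 2508 of all 14675 transcripts tested. Without *nkx2.2(RNAi)* replicate 2 or 3 there were 3 or 8 members, beside 485 or 541 of all transcripts. Leaving out control replicate 1, 2 or 3 gave 6, 43 or 22 members, beside 418, 669 or 499 of all transcripts. Replicates 2 and 3 lay below all 3 controls in every member by the rule. Replicate 1, which the rule holds above its lower limit, did so in 52 members (13.6%), beside 19.4% of the 11525 transcripts.

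To find what kinds of gene the members represent, they were matched to the study's protein annotation, of which only a part was used here. Of the 381 members 105 were listed there, and 61 of these (58.1%) had a protein match, against 75.8% of all 2225 listed transcripts with a mean control CPM of at least 5. A table of the annotation is ordered by identifier and not by outcome, and there 14 of 23 listed members (60.9%) had a match, against 76.8% of 866 transcripts. In a table of sorted cell fractions 9 of 23 listed members (39.1%) had a match, against 79.7% of 423 transcripts. The annotation includes many transcripts listed for their change in these libraries, so the counts below are no independent evidence of a direction. Among all 1686 matched transcripts at this level, 61 (3.62%) were members, and 400 (23.7%) were lower and 379 (22.5%) higher past the threshold. The counts of each list below stand against these shares. The best match came from zebrafish for 20 members, mouse for 16, fly for 11, human for 10 and worm for 4. Transcripts are named below by that match, and roles are those known for the matched protein in vertebrates, flies or worms.

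Most of the abundant members were not listed in the annotation used here. The most abundant, dd_Smed_v6_132_0_1 (433 bases), stood at 467, 129 and 74.3 CPM in *nkx2.2(RNAi)* libraries, against 562, 350 and 331.9 CPM in control libraries. Replicate 1 was thus within the control range, and replicates 2 and 3 were at 31.1% and 17.9% of the control mean. Next came dd_Smed_v6_530_0_1, with 322, 156 and 125 CPM in *nkx2.2(RNAi)* libraries, against 384, 287 and 293 CPM in controls, and dd_Smed_v6_488_0_1, with 310, 186.3 and 167 CPM against 355, 305 and 300 CPM. In all 3 of these transcripts both low libraries were below every control, and control replicate 1 was the highest library. Of the 12 most abundant members, 4 had a match, *VAPA*, *CNOT9*, *srebf2* and *Vps39*, which are described with their groups.

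The members with the lowest ratios were weakly expressed and 501 to 1317 bases long. The 8 lowest had a mean of replicates 2 and 3 between 16.7% and 21.4% of the control mean, and none had a protein match in the annotation used here. dd_Smed_v6_13378_0_1 stood at 5.66, 0.913 and 1.16 CPM in *nkx2.2(RNAi)* libraries, against 8.19, 5.42 and 5.02 CPM in controls. dd_Smed_v6_1558_0_1, the most abundant of the 8, stood at 17.5, 3.65 and 2.36 CPM in *nkx2.2(RNAi)* libraries, against 26.7, 11.4 and 11.3 CPM in controls. In both, control replicate 1 was the highest of all 6 libraries and *nkx2.2(RNAi)* replicate 1 the second highest.

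Among matched members 8 were proteins of membrane traffic. This list was drawn up after the values were seen, as were the lists of TNF receptor-associated factors, transcription cofactors, proton pump subunits and ribosomal proteins below. Members were picked for these lists, so a share above the 3.62% of all matched transcripts is no result. The list of membrane traffic held 30 annotated transcripts, of which 11 were lower (36.7%, against 23.7% of all matched transcripts) and 10 higher (33.3%, against 22.5%) past the threshold. The most abundant was *VAPA* (dd_Smed_v6_1433_0_1), a membrane protein that joins the endoplasmic reticulum to other organelles. It stood at 200, 121 and 108 CPM in *nkx2.2(RNAi)* libraries, against 251, 201 and 233 CPM in controls. *Vps39* (dd_Smed_v6_5815_0_1), a subunit of the complex that tethers late endosomes to lysosomes, stood at 85.9, 50.4 and 52.2 CPM in *nkx2.2(RNAi)* libraries, against 99.9, 87.6 and 89.6 CPM in controls. They were at 50.1% and 55.5% of the control mean over replicates 2 and 3, and in both replicate 1 lay just under the lowest control.

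The small GTPase *Rab10* (dd_Smed_v6_3889_0_1), which acts in vesicle transport, stood at 29.2, 14.03 and 14.7 CPM in *nkx2.2(RNAi)* libraries, against 45.7, 27.1 and 32.0 CPM in controls. *tmem41b* (dd_Smed_v6_3439_0_1), a lipid scramblase of the endoplasmic reticulum, stood at 39.9, 22.3 and 17.2 CPM in *nkx2.2(RNAi)* libraries, against 58.5, 42.6 and 46.4 CPM in controls. For *Rab10* replicate 1 lay within the control range, and for *tmem41b* it lay below all controls. The other members of the group were *mon1bb*, an activator of a late endosomal GTPase, *btsz*, a synaptotagmin-like protein of flies, *Sec61g*, a subunit of the channel through which proteins enter the endoplasmic reticulum, and *trappc2l*, a subunit of a vesicle tethering complex. In these the mean of replicates 2 and 3 was between 48.6% and 51.1% of the control mean.

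The proton pump that acidifies lysosomes and endosomes was represented by 2 members of 3 annotated transcripts on a list drawn up after the values were seen, where the share of 3.62% over all matched transcripts gives no comparison. *ATP6V0E2* (dd_Smed_v6_1981_0_1), a subunit of its membrane part, stood at 21.8, 5.91 and 4.90 CPM in *nkx2.2(RNAi)* libraries, against 32.3, 22.3 and 20.9 CPM in controls. Its mean over replicates 2 and 3 was 21.5% of the control mean, among the lowest of all members with a match. *atp6ap2* (dd_Smed_v6_1067_0_1), an accessory protein of the pump, stood at 24.8, 12.2 and 8.83 CPM in *nkx2.2(RNAi)* libraries, against 23.8, 22.4 and 23.3 CPM in controls. Here the 3 controls were close together, and replicate 1 of the knockdown was the highest of all 6 libraries. Of the 3 annotated transcripts of the pump, 0 were lower and 1, not a member, was higher past the threshold. Of the wider list of lysosomal proteins and glycosidases, with 16 annotated transcripts, 5 were lower and 5 higher past the threshold (31.2% each, against 23.7% and 22.5% of all matched transcripts).

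Genes of lipid handling were examined because the study concerned intestinal lipoproteins. Of 44 annotated transcripts of lipid metabolism and transport 3 were members (6.82%, against 3.62% of all matched transcripts). Over the list 19 were lower (43.2%, against 23.7%) and 12 higher (27.3%, against 22.5%) past the threshold. *srebf2* (dd_Smed_v6_3641_0_1) encodes a transcription factor that switches on cholesterol synthesis in vertebrates. It stood at 109, 54.3 and 58.1 CPM in *nkx2.2(RNAi)* libraries, against 130, 108 and 102 CPM in controls. *Soat1* (dd_Smed_v6_4278_0_1), which joins cholesterol to fatty acids for storage, stood at 30.4, 17.8 and 18.1 CPM in *nkx2.2(RNAi)* libraries, against 39.3, 28.8 and 32.0 CPM in controls. In both, replicate 1 lay within the control range while replicates 2 and 3 together were at 49.5% and 53.8% of the control mean. *acot8* (dd_Smed_v6_10206_0_1), a peroxisomal thioesterase of fatty acyl groups, stood at 8.62, 5.73 and 5.53 CPM in *nkx2.2(RNAi)* libraries, against 11.02, 9.71 and 9.94 CPM in controls, with replicate 1 below all 3.

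In the study's gene ontology lists, 1 of 45 transcripts of lipid transport, 3 of 132 of triglyceride and 4 of 136 of cholesterol with a mean control CPM of at least 5 were members. Together these were 7 of 264 transcripts (2.65%), against 3.31% of all 11525 transcripts, a share close to that background. The medians of the cholesterol list were 101%, 89.2% and 91.1% of the control mean in *nkx2.2(RNAi)* replicates 1, 2 and 3. Its other members were *cln6a* (dd_Smed_v6_7650_0_1), an endoplasmic reticulum protein lost in a lysosomal storage disease, and dd_Smed_v6_7551_0_1. *cln6a* stood at 14.2, 5.76 and 7.21 CPM in *nkx2.2(RNAi)* libraries, against 20.7, 14.05 and 16.4 CPM in controls. The triglyceride members dd_Smed_v6_14141_0_1, dd_Smed_v6_7741_0_1 and dd_Smed_v6_9122_0_1 had control means under 10 CPM.

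Adaptors of cytokine receptors formed a small group. TNF receptor-associated factors pass signals from receptors of the tumour necrosis factor family, and many are annotated in planarians. Of 26 annotated transcripts 3 were members (11.5%, against 3.62% of all matched transcripts). Of the 26, 15 were lower (57.7%, against 23.7%) and 3 higher (11.5%, against 22.5%) past the threshold. *Traf5* (dd_Smed_v6_7950_0_1) stood at 38.0, 21.2 and 20.2 CPM in *nkx2.2(RNAi)* libraries, against 49.9, 46.1 and 43.2 CPM in controls. *Traf3* (dd_Smed_v6_5689_0_1) stood at 26.9, 16.8 and 15.4 CPM in *nkx2.2(RNAi)* libraries, against 31.0, 26.9 and 32.1 CPM in controls. *TRAF2* (dd_Smed_v6_5740_0_1) stood at 18.7, 11.8 and 8.51 CPM in *nkx2.2(RNAi)* libraries, against 21.2, 20.2 and 20.3 CPM in controls. In all 3, replicate 1 was below every control, at 81.9%, 89.6% and 90.9% of the control mean. Over the whole list the medians were 87.6%, 70.1% and 73.2% of the control mean in *nkx2.2(RNAi)* replicates 1, 2 and 3.

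**Figure D4:**
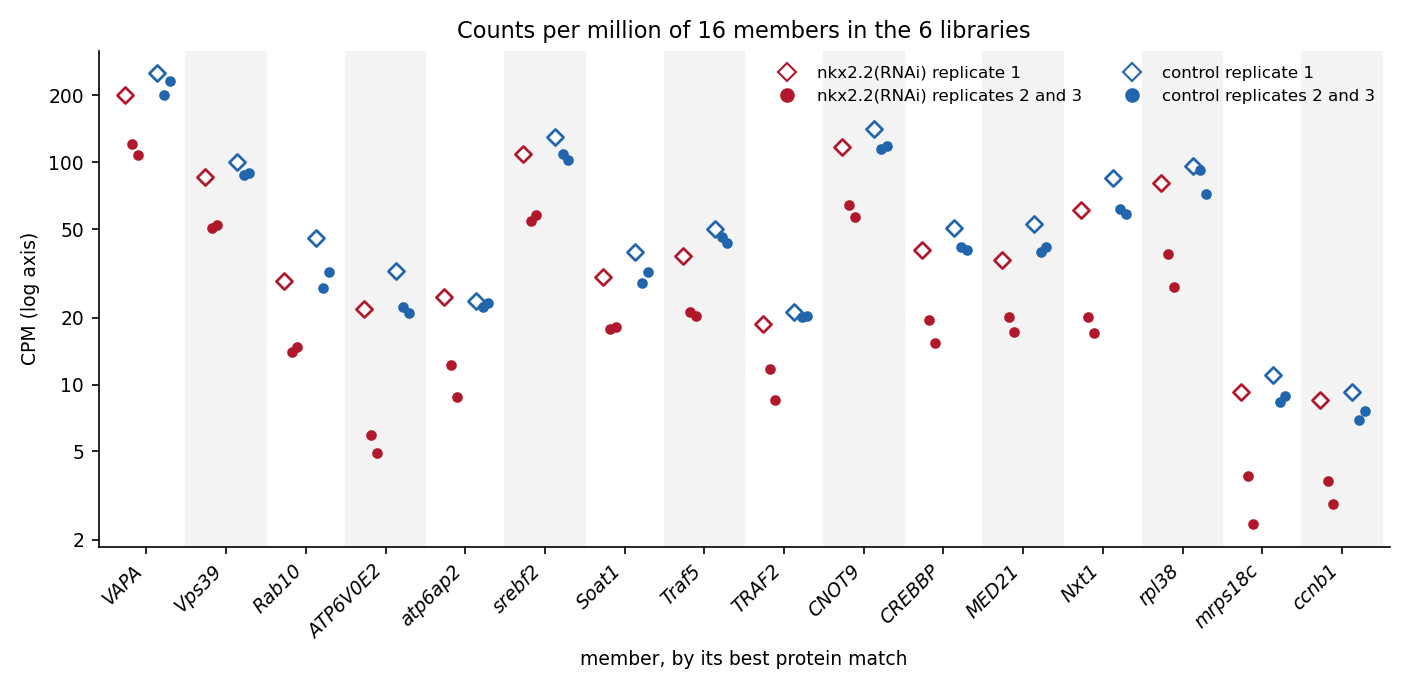
Level in CPM, on a log axis, of 16 matched members in the 6 libraries, with *nkx2.2(RNAi)* libraries left of control libraries for each member. Open diamonds are replicate 1 of each group and filled points are replicates 2 and 3. For *srebf2* the knockdown libraries stood at 109, 54.3 and 58.1 CPM, against 130, 108 and 102 CPM in controls.

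Regulators of transcription were described next. On the wider list of nuclear proteins and transcription, 6 of 176 annotated transcripts were members (3.41%), a share near the 3.62% of all matched transcripts. Of the 176, 14 were lower (7.95%, against 23.7%) and 15 higher (8.52%, against 22.5%) past the threshold. The list of cofactors and regulators, picked after the values were seen, held 10 members of 36 annotated transcripts, *srebf2* among them, with 9 lower, near the 23.7% of all matched transcripts, and 2 higher (5.56%, against 22.5%). *CNOT9* (dd_Smed_v6_2344_0_1), a subunit of the complex that shortens the poly(A) tails of mRNA, stood at 117, 64.1 and 56.7 CPM in *nkx2.2(RNAi)* libraries, against 142, 115 and 118 CPM in controls. *CREBBP* (dd_Smed_v6_9343_0_1), a histone acetyltransferase that binds many transcription factors, stood at 40.2, 19.6 and 15.5 CPM in *nkx2.2(RNAi)* libraries, against 50.7, 41.4 and 40.2 CPM in controls. *CREB1* (dd_Smed_v6_4685_0_1), a transcription factor that recruits CREB-binding protein in mammals, stood at 38.2, 21.6 and 18.4 CPM in *nkx2.2(RNAi)* libraries, against 50.5, 42.5 and 42.8 CPM in controls. Over replicates 2 and 3 these *CREB1* and *CREBBP* transcripts had means of 44.2% and 39.8% of the control mean. The other transcript of the *CREB1* assembly component, dd_Smed_v6_4685_1_1, stood at 55.5, 46.1 and 43.4 CPM in *nkx2.2(RNAi)* libraries, against 68.8, 62.1 and 57.1 CPM in controls. Per the study's methods a read that aligns to both adds to both. What the deposited values count is not settled, so the 2 may not be fully told apart.

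Among these members were 2 subunits of Mediator, the complex that links transcription factors to RNA polymerase. Its other subunits are not described here. *MED21* (dd_Smed_v6_2670_0_1) stood at 36.4, 20.1 and 17.2 CPM in *nkx2.2(RNAi)* libraries, against 52.5, 39.3 and 41.7 CPM in controls. *MED8* (dd_Smed_v6_5511_0_1) stood at 10.6, 4.37 and 3.31 CPM in *nkx2.2(RNAi)* libraries, against 14.9, 8.83 and 9.32 CPM in controls. Replicate 1 of *MED21* lay below all controls and that of *MED8* within their range. The rest of the group were *Ints12* of the Integrator complex, the histone acetyltransferase *Hat1*, the fly transcription factor *crp* and *mterf3*, which acts on mitochondrial transcripts, with means over replicates 2 and 3 between 41.4% and 46.7% of the control mean.

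RNA export and the making of ribosomes gave further members. *Nxt1* (dd_Smed_v6_2077_0_1), a cofactor of mRNA export from the nucleus, stood at 61.0, 20.2 and 17.0 CPM in *nkx2.2(RNAi)* libraries, against 84.7, 61.8 and 58.3 CPM in controls. Its mean over replicates 2 and 3 was 27.2% of the control mean, lower than in most matched members. *nifk* (dd_Smed_v6_970_0_1), a nucleolar protein, stood at 77.6, 39.5 and 33.0 CPM in *nkx2.2(RNAi)* libraries, against 103, 86.8 and 82.3 CPM in controls. *rpl38* (dd_Smed_v6_236_0_1), a protein of the large ribosomal subunit, stood at 81.1, 38.8 and 27.5 CPM in *nkx2.2(RNAi)* libraries, against 96.0, 91.8 and 72.0 CPM in controls.

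Ribosomal proteins of both kinds were among the members, on lists of few transcripts that were picked after the values were seen. Of 10 annotated cytosolic ribosomal proteins 2 were members, *rpl38* and *RpS4*, and the medians of the 10 were 103%, 115% and 114% of the control mean in *nkx2.2(RNAi)* replicates 1, 2 and 3. Of 4 annotated mitochondrial ribosomal proteins 2 were members, *mrps18c* and *Mrps21*. *mrps18c* (dd_Smed_v6_8350_0_1) stood at 9.25, 3.88 and 2.36 CPM in *nkx2.2(RNAi)* libraries, against 11.1, 8.38 and 8.84 CPM in controls. *Mrps21* (dd_Smed_v6_1993_0_1) stood at 5.83, 1.57 and 0.837 CPM in *nkx2.2(RNAi)* libraries, against 6.56, 5.76 and 4.53 CPM in controls. The 4 transcripts *rpl38*, *mrps18c*, *Mrps21* and *Sec61g* were 382 to 475 bases long and in the shortest decile of all transcripts. On the list of ribosome, translation and protein folding as a whole, 5 of 113 were members (4.42%, near the 3.62% of all matched transcripts). Of the 113, 11 were lower (9.73%, against 23.7%) and 34 higher (30.1%, against 22.5%) past the threshold.

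Members of the cell cycle and of signalling were then described. *ccnb1* (dd_Smed_v6_11487_0_1), a cyclin of mitosis, stood at 8.56, 3.67 and 2.90 CPM in *nkx2.2(RNAi)* libraries, against 9.26, 6.92 and 7.58 CPM in controls. *RRM2B* (dd_Smed_v6_5862_0_1), a subunit of the enzyme that makes deoxyribonucleotides, stood at 15.7, 6.53 and 6.11 CPM in *nkx2.2(RNAi)* libraries, against 19.3, 14.2 and 12.5 CPM in controls. These were 2 of 32 annotated transcripts of cell cycle and replication (6.25%, against 3.62% of all matched transcripts), of which 3 were lower (9.38%, against 23.7%) and 1 higher (3.12%, against 22.5%) past the threshold. *piwi-1* in the same libraries was at 96.8%, 83.5% and 81.4% of the control mean. Of 221 annotated receptors, ligands and signalling proteins 7 were members (3.17%, near the 3.62%), and 64 were lower (29.0%, against 23.7%) and 51 higher (23.1%, against 22.5%) past the threshold. Besides 3 TNF receptor-associated factors these included *Trpm2* (dd_Smed_v6_7784_0_1), a calcium-permeable channel, which stood at 36.2, 21.8 and 23.1 CPM in *nkx2.2(RNAi)* libraries, against 54.6, 42.9 and 38.1 CPM in controls.

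The lists of proteases, extracellular matrix proteins and membrane transporters held few members, in numbers near the 3.62% of all matched transcripts. The lists of lysosomal proteins and of lipid metabolism described above held 2 of 16 (12.5%) and 3 of 44 (6.82%). None of 34 annotated proteases and protease inhibitors and none of 35 proteins of extracellular matrix and adhesion were members. Of 96 annotated membrane transporters 2 were members, *Trpm2* and *ATP6V0E2*, or 2.08%. Of the 96, 57 were lower (59.4%, against 23.7% of all matched transcripts) and 11 higher (11.5%, against 22.5%) past the threshold. The medians of the transporters were 76.9%, 60.1% and 63.8% of the control mean in *nkx2.2(RNAi)* replicates 1, 2 and 3. Transporters as a list were thus also lower in replicate 1 than the 1686 annotated transcripts at large, whose medians were 103.6%, 96.6% and 93.4%. On the remaining lists, 5 of 68 mitochondrial proteins were members (7.35%), as were 1 of 68 oxidoreductases, 1 of 51 cytoskeletal proteins and 1 of 25 proteins of neural function. Of the mitochondrial proteins, 8 were lower (11.8%, against 23.7%) and 20 higher (29.4%, against 22.5%) past the threshold. Their medians were 106%, 111% and 101% of the control mean in *nkx2.2(RNAi)* replicates 1, 2 and 3.

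Few members had alternative transcripts in the assembly. In all, 7 members (1.84%) belonged to an assembly component with more than 1 transcript, against 1.93% of the 11525. None of their partners was a member. dd_Smed_v6_3493_0_1 stood at 23.8, 8.59 and 7.02 CPM in *nkx2.2(RNAi)* libraries, against 26.2, 11.7 and 17.8 CPM in controls. Its partner dd_Smed_v6_3493_1_1 stood at 166, 171 and 172 CPM in *nkx2.2(RNAi)* libraries, against 142, 127 and 153 CPM in controls. With counts summed over each component, 376 components met the rule, 375 of which held a member.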

How the data were processed

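The authors trimmed the reads (BBDuk), aligned them to the dd_Smed_v6 transcripts with Bowtie2 2.3.1, keeping every alignment, and, per their methods, counted them with featureCounts (Subread 1.6.3), a read aligning to several transcripts adding to each. The deposited counts are raw whole numbers. They end in an unnamed row of 0, which samtools idxstats writes and featureCounts does not, so whether they count fragments, reads or alignments is not settled. That row was left out, as was a deposited table of the authors' own comparison (log2 fold changes, average log2 CPM and adjusted p-values).

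Here the rule was applied to CPM from column sums. Transcripts above 1 CPM in 3 or more libraries were fitted in edgeR 4.0.16 under R 4.3.3 (TMM, exact test, two-sided, Benjamini-Hochberg over all transcripts tested), a step tested on simulated counts. SEs reflect the spread of libraries within groups, which may in part be technical. Alternatives were the quasi-likelihood test, DESeq2 1.42.0, other scalings, filters and limits, a replicate block and each library left out.

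Members and lists were chosen with earlier results of these data known. Named were the 12 members of highest control CPM, the 8 of lowest ratio, up to 4 per annotation list, the lipid list members and those nearest the limits. Others (such as *Nxt1*, *Rab10*, *tmem41b*, *CREB1*, *CREBBP*, *MED8*, *TRAF2* and *Mrps21*) were chosen after their values were seen. Protein matches come from the part of the study's annotation held here.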

Additional observations from a re-analysis of the deposited data

How the results depend on the processing

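The count of 381 members moved with the limits of the rule. It was 794 and 237 with a minimum control level of 1 and 10 CPM, and 177 and 808 with replicates 2 and 3 at most 0.5 and 0.7 times the control mean. It was 181 with replicate 1 at or above the control mean. With the abundance trend taken out it was 233, with the length trend taken out 251, and with the control library of the same number as reference, a choice made after seeing the data, 140. Leaving out a control library gave 279 to 440 members. Leaving out a knockdown library removes its limit from the rule, so all 381 stayed by construction and the count rose to between 480 and 685. Past the threshold there were 63 members by the exact test, 7 by the quasi-likelihood test and 22 with library size only, and 3 to 381 with each library left out. Over all transcripts the exact test called 808 lower and 771 higher. The quasi-likelihood test called 509 and 452, and the exact test with library size only 752 and 542. When each library was left out, 418 to 2508 were lower and 292 to 2097 higher. Deviations from the group means correlated by 0.40, 0.00 and 0.17 between libraries of the same number 1, 2 and 3. Between libraries of different numbers the correlations ran from -0.37 to 0.24, so the pair numbered 1 had the highest. The labels do not say whether the numbers pair the samples, and this was not tested. When the quasi-likelihood test took the replicate number as a block, 259 members passed, in place of 7, and 1075 transcripts were lower and 797 higher. *nkx2.2* stayed past the threshold in every alternative, with log2 fold changes of -4.49 to -4.32. Of 396 alternative log2 ratios of the 44 named members to the control mean, 361 moved by less than the spread between controls, 35 by more and 0 changed sign. The rule already holds replicates 2 and 3 well under the control mean and below every control, so nothing is read from the sign. Depth limits mainly the least abundant members, such as *Mrps21*, with 0.837 CPM in *nkx2.2(RNAi)* replicate 3.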
